A study of Mus musculus with 16 samples.

Results

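The quantity examined was the difference in TGFβ response between wild-type mouse embryo fibroblasts (WT) and fibroblasts lacking Arkadia (null). For each gene the change in log2(FPKM + 1) from 0 h to 1, 4 or 16 h of TGFβ was taken in each line, and the null change was subtracted from the WT change. A positive value therefore means that the transcript moved further up, or less far down, in WT. A difference of 1 on this scale corresponds to a 2-fold difference in the response of a well-expressed gene and was used as a descriptive threshold. The genes were those at 1 FPKM (fragments scaled to transcript length and to the mapped fragments of the library) or more in every one of the 8 libraries, which kept 9733 of the 12100 genes of the table.

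The series holds 16 poly(A)-enriched RNA libraries of mouse embryo fibroblasts in a pair of sets told apart by their library names, and 8 of them, called set A, carry the comparison. Whether these sets are sequencing batches is not stated in the labels. They are Ark+/+ (WT) and Ark-/- (null) fibroblasts, each untreated (0 h) or given TGFβ at 2.5 ng/ml for 1, 4 or 16 h. The other 8, set B, are null fibroblasts at 0 and 1 h, and null fibroblasts in which Arkadia was put back by retrovirus, as the wild-type protein (rvWT) or a sim mutant (sim), each at 0, 1 and 4 h of the same dose. Each line had 1 library per time within a set, only null at 0 and 1 h is in both sets, and WT is in set A alone. The labels do not say how many embryos, clones or cultures stand behind a line, so the Arkadia genotype and any other difference between these lines cannot be told apart. With 1 library per point, the 3 treated times are the sole repeats of the difference, and all 3 are measured from the same pair of untreated libraries.

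TGFβ binds a complex of type I and type II receptor kinases, which phosphorylate SMAD2 and SMAD3. These join SMAD4, enter the nucleus and switch genes on or off, among them feedback inhibitors such as Smad7 and the repressors Ski and Skil. Arkadia, the RING-type ubiquitin ligase encoded by Rnf111, is known for marking SMAD7, SKI and SnoN (the product of Skil) for degradation. In fibroblasts the pathway is best known for raising extracellular matrix and contractile proteins.

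Rnf111 measured 14.6, 15.1, 15.0 and 14.5 FPKM at 0, 1, 4 and 16 h in WT. In null of set A it measured 0.155, 0.198, 0.177 and 0.121 FPKM, and the lines did not overlap at any time. In set B it measured 110, 103 and 126 FPKM in rvWT at 0, 1 and 4 h. The sim line gave 62.1, 56.0 and 61.1 FPKM, and null of set B 0.526 and 0.435 at 0 and 1 h. Because of its low level in null, Rnf111 itself is not among the 9733 genes. Ski, the repressor that Arkadia targets, measured 15.8, 38.1, 27.8 and 23.0 FPKM in WT. In null it measured 25.2, 37.6, 32.5 and 28.7 FPKM, so that null was the higher line at 0 h, 4 h and 16 h and the lines were level at 1 h. The response difference of the Ski transcript was 0.66, 0.42 and 0.33 at 1, 4 and 16 h. Smad7, the inhibitory SMAD, reached 40.1 FPKM at 1 h from 8.21 in WT, and 24.4 from 5.89 in null. Its response differed by 0.27, 0.21 and -0.12. Skil was not analysed here.

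Total FPKM per library ran from 397019 to 399744 in WT and from 414002 to 424998 in null. Fibroblast markers were present in both lines: 12 of the 14 measured markers were among the tested genes, and their summed level was 2732 to 3154 FPKM in WT and 6331 to 6500 in null. The summed level of the 7 measured epithelial markers was 320.5 to 561 FPKM in WT and 44.6 to 74.8 in null, of which Krt19, a keratin, made up 519 FPKM in WT and 4.91 in null at 0 h. Summed endothelial markers lay at 24.5 to 43.3 FPKM in WT and 8.79 to 10.7 in null, haematopoietic markers at 6.36 to 7.97 and 13.2 to 17.1. Neural markers summed to 50.6 to 84.8 FPKM in WT and 24.8 to 41.4 in null, and muscle and adipocyte markers to 46.8 to 70.6 and 96.6 to 137. Cdh1, Epcam, Pecam1, Ptprc, Sox2 and Adipoq, which define those other cell types, were not analysed here. The part of these line differences in the response differences was not tested, and in bulk RNA fewer cells of a kind and less RNA per cell cannot be told apart.

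Differences between the lines were few, and their number was larger at later times. At 1 h, 71 genes differed in their response by 1 log2 unit or more (0.729% of the genes tested), 41 with WT the more positive line (0.421%) and 30 with null (0.308%). At 4 h there were 102 such genes (1.05%), 44 with WT the more positive (0.452%) and 58 with null (0.596%). At 16 h there were 195 genes (2.0%), 92 (0.945%) and 103 (1.06%). The standard deviation of the difference over genes was 0.24 at 1 h, 0.28 at 4 h and 0.37 at 16 h, around medians of -0.01, 0.01 and 0.05. At some time 288 genes passed the threshold. Of the 41 small RNA genes (microRNAs, small nucleolar and Cajal body RNAs) among the 9733, 29 did so, a class that poly(A) libraries capture poorly.

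The responses themselves had much in common. At 1 h, 92 genes rose by 1 log2 unit or more in WT (0.945%) and 66 in null (0.678%), and the 35 shared genes were 38% of the WT set and 53% of the null set. At 4 h 120 genes rose in WT (1.23%) and 85 in null (0.873%), with 45 shared, while 54 fell in WT (0.555%) and 29 in null (0.298%), with 8 shared. At 16 h the order was turned: 91 rose in WT (0.935%) and 145 in null (1.49%), with 47 shared, while 73 fell in WT (0.75%) and 155 in null (1.59%), with 32 shared. The number of genes past the threshold was thus larger in WT at 1 and 4 h and larger in null at 16 h, a difference that was not tested. Across the 9733 genes, Pearson's r between the WT and null responses was 0.54 at 1 h, 0.58 at 4 h and 0.51 at 16 h (Spearman's rho 0.37, 0.50 and 0.42). These describe genes, which are not independent replicates, and each rests on 4 libraries.

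**Figure D1:**
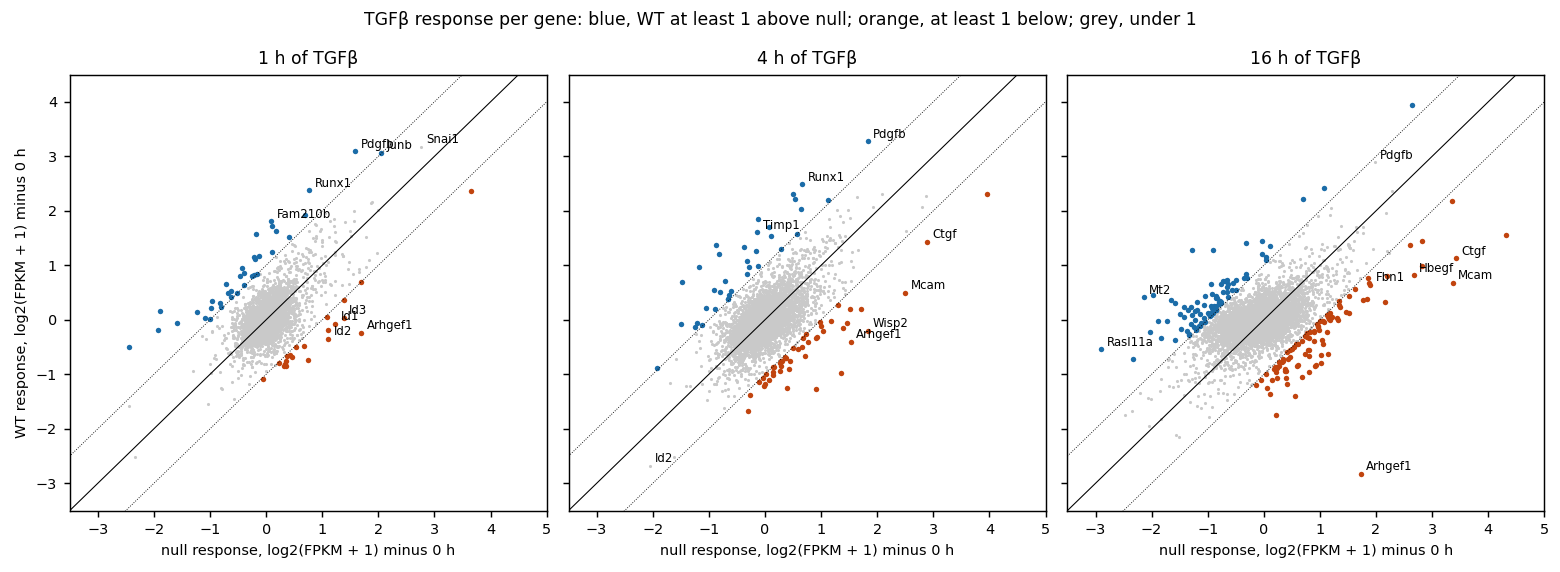
Each point is a gene, with its TGFβ response in null on the x axis and in WT on the y axis, both as log2(FPKM + 1) minus 0 h, at 1, 4 and 16 h. Small RNA genes are not drawn. Points beyond the dotted lines differ by at least 1 (57, 84 and 182 genes with small RNAs left out), and Arhgef1 lies below them at all 3 times.

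No gene passed a test of the difference over the 3 times. In limma (trend on log2(FPKM + 1), time as a block, a term for line by treatment, Benjamini-Hochberg adjustment over 9733 genes), 0 genes had an adjusted p below 0.05. The unadjusted p of this limma fit was below 0.05 in 218 genes, a smaller share of the 9733 than the 0.05 that evenly spread p-values would give. The smallest p belonged to the small nucleolar RNA gene Snora31, with a difference of 2.87 and an adjusted p of 0.48. Rnf126, a ubiquitin ligase gene, came next with 1.31 ± 0.18 (SE) and an adjusted p of 0.9998. With a mean of 1 FPKM over the 8 libraries as the filter in place of 1 FPKM in each, 9 genes passed, of which 8 are small RNA genes and the other is Cbx5, all of them under 0.1 FPKM in 4 to 7 of the 8 libraries. With the untreated null library of set B in place of that of set A as the null baseline, 87 genes passed and 155 genes differed by 1 or more in a single direction at all 3 times, against 13. That fit mixes the library sets in 1 line alone, and the cause was not tested. Its filter of 1 FPKM was still applied to the set A libraries, so values of the set B library could lie below it. The fit rests on 2 residual degrees of freedom, which come from the 3 treated times alone. It matches the untreated pair exactly, so the variation of that pair is not measured and was assumed to be like that of the treated pairs. The p-values and the SE therefore reflect only how the treated libraries vary, part of which may be technical. The differences given for single genes from here on are therefore measured values without a test behind them.

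Among early TGFβ targets, the tested list of 28 genes held members past the threshold in both directions. The list median was 0.07 at 1 h, 0.16 at 4 h and -0.22 at 16 h, against -0.01, 0.01 and 0.05 over all genes, and 20 of the 28 lay below 0 at 16 h, against 42.9% of all genes. At 1 h, 3 members stood at least 1 above null (Pdgfb, Runx1 and Junb), against 0.421% of all genes. At 16 h, 1 stood above (Ndrg1), and Ctgf, Hbegf, Nuak1 and Has2 were among the 5 below, against 0.945% and 1.06% of all genes. In WT 15 of the 28 rose by 1 or more at 1 h and 10 at 16 h, against 0.945% and 0.935% of all genes. In null 14 and 16 did so, against 0.678% and 1.49%.

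Ctgf, a matricellular growth factor gene, was the higher in WT throughout, with 663, 1413, 1782 and 1449 FPKM in WT at 0, 1, 4 and 16 h and 52.9, 189.9, 399 and 578 in null. Its ratio to 0 h was 2.13, 2.69 and 2.19 in WT and 3.59, 7.55 and 10.9 in null. The response difference was -0.73, -1.47 and -2.30. Nuak1, a kinase gene, measured 38, 80.1, 53.3 and 49.2 FPKM in WT and 14.3, 41.3, 39.9 and 50.8 in null, with differences of -0.41, -0.94 and -1.39. Has2, a hyaluronan synthase gene, started lower in WT and stayed lower, with 2.59, 4.86, 10.1 and 8.74 FPKM against 9.18, 22.8, 57.5 and 71.1 in null. Its difference was -0.51, -0.90 and -1.38. Ctgf and Nuak1 thus began at a higher level in WT than in null and Has2 at a lower one, and all of them stood higher in null at 16 h than at 4 h.

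Pdgfb and Runx1 differed the other way. Pdgfb, which encodes a chain of platelet-derived growth factor, measured 6.07, 59.2, 67.3 and 51.4 FPKM in WT. In null it measured 8.20, 26.7, 31.8 and 35.2 FPKM. The lines were close at 0 h, and WT was higher at each treated time. The ratio to 0 h was 9.76, 11.1 and 8.48 in WT and 3.25, 3.88 and 4.29 in null, and the response difference was 1.5, 1.44 and 0.92. Runx1, a transcription factor gene, measured 1.88, 14, 15.1 and 9.87 FPKM in WT and 3.21, 6.17, 5.66 and 8.47 in null. Its difference was 1.61 at 1 h, 1.82 at 4 h and 0.74 at 16 h. Junb, an AP-1 subunit gene, began at 22.0 FPKM in WT and 20.8 in null and reached 191 and 89.5 FPKM at 1 h. Its difference of 1.00 at 1 h was 0.61 at 4 h and 0.06 at 16 h, where the lines measured 73.8 and 66.8 FPKM.

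Other early targets rose in both lines at 1 h with a difference under the threshold of 1. The examples that follow were chosen after their values were seen. Snai1, a repressor of epithelial genes, rose by 3.17 in WT and 2.75 in null at 1 h, from 9.17 and 11.2 FPKM. Bhlhe40 rose by 2.02 and 2.00, and Pmepa1, a feedback inhibitor of the pathway, by 1.63 and 1.49, from 23.3 FPKM in WT and 8.95 in null.

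**Figure D2:**
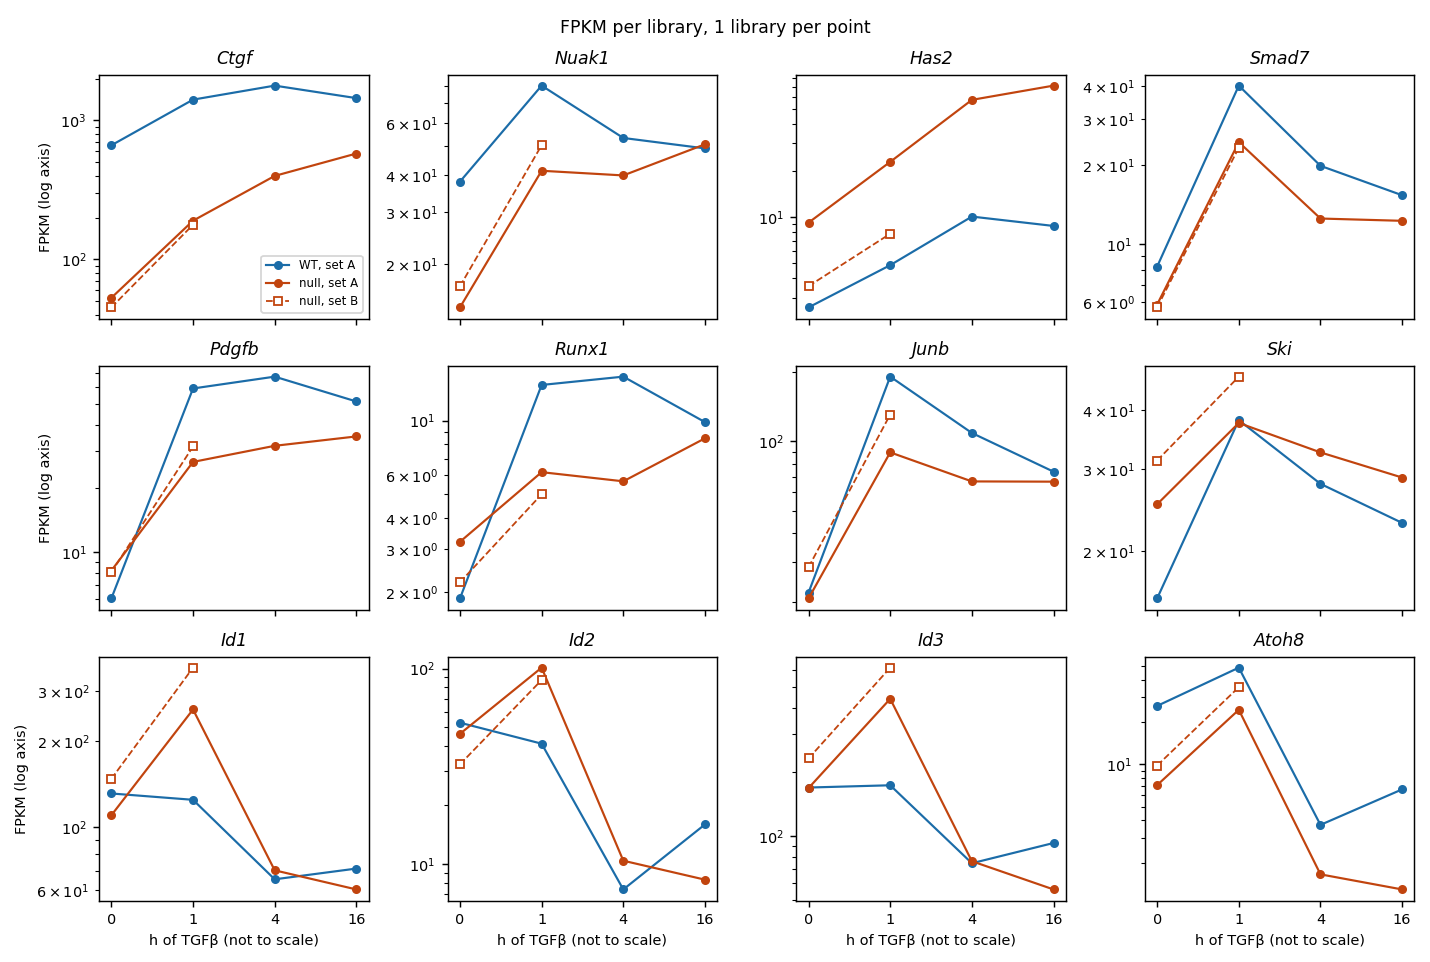
FPKM of 12 genes (log axis) at 0, 1, 4 and 16 h of TGFβ, 1 library per point, for WT and null of set A and null of set B. Ctgf and Nuak1 start higher in WT, Pdgfb and Runx1 start lower in WT and stand higher there from 1 h, and Id1, Id2 and Id3 peak at 1 h in null of set A.

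The list of BMP and Id targets gave the median farthest from 0 at 1 h among the 23 lists. The Id genes encode helix-loop-helix proteins that bind and disable other transcription factors. They are classic targets of the BMP branch of the family, which signals through SMAD1 and SMAD5. The tested BMP and Id list (7 of 16 measured genes) had a median difference of -0.77 at 1 h, -0.49 at 4 h and 0.00 at 16 h. At 1 h 3 members (Id1, Id2 and Id3) passed the threshold downward, against 0.308% of all genes. For comparison, the median over all genes was -0.01 at 1 h. The bases before the transcription start of Id2 and Id3 are shown because both genes were induced at 1 h in null and not in WT, and they were chosen after those values were seen. They come from RefSeq on build GRCm38.p6, and are the 250 bases before the start at chr12:25096093-25096342 (minus strand) and chr4:136143572-136143821 (plus strand). Capitals mark GGCGCC, a motif bound by BMP-activated SMADs, and CAGAC, a motif bound by SMAD3 and SMAD4, which is written GTCTG where it lies on the other strand:
Id2: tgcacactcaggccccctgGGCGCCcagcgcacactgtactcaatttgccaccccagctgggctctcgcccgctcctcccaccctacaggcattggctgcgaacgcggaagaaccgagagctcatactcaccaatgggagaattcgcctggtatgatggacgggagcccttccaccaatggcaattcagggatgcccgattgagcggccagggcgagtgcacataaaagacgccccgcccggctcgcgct
Id3: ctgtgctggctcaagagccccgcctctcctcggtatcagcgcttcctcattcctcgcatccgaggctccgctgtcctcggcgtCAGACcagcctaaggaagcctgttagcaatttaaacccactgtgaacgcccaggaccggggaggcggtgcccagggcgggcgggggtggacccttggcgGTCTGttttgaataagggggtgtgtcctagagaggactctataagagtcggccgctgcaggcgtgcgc

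The Id2 window held GGCGCC at 1 place and the Id3 window CAGAC at 2, counting both strands, and neither held TGANTCA, the AP-1 motif. Over 32851 such windows, 42.2% held CAGAC, 9.59% GGCGCC and 6.75% TGANTCA. The matches are descriptions of the sequence and not sites. The same search was made for the leading genes of the agreement described further on: CAGAC lay at 2 places over the windows of Rad54l, at 2 in that of Snhg9, at 1 over those of Arhgef1 and at 1 in that of Cyp26b1. Rnf126 and Trim39 had none, and TGANTCA was in none of these 6 genes.

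Id1 measured 131, 124, 65.3 and 71.3 FPKM in WT at 0, 1, 4 and 16 h. In null it measured 109.7, 258, 70.3 and 60.2 FPKM. The response difference was -1.30, -0.36 and -0.01. Only at 1 h did the lines stand well apart.

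Id2 measured 52.8, 41.3, 7.4 and 15.9 FPKM in WT and 46.3, 101.1, 10.4 and 8.30 in null, with differences of -1.46, -0.62 and 0.68. Id3 measured 169, 173, 74.6 and 92.8 FPKM in WT and 168, 440.5, 76.2 and 56.2 in null, with differences of -1.35, -0.04 and 0.71. In both lines Id2 and Id3 were lower at 4 h than at 0 h, and at 16 h WT was the higher line for both. At 1 h the ratio to 0 h was 0.95 for Id1, 0.78 for Id2 and 1.02 for Id3 in WT, and 2.35, 2.18 and 2.62 in null.

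The other members of the list did not share the pattern in full. Id4, which was measured but did not pass the filter, had a 1 h ratio to 0 h of 2.51 in WT and 2.81 in null. Atoh8, another BMP target, stood higher at 1 h than at 0 h in both lines, with 26, 48.7, 3.71 and 6.63 FPKM in WT and 7.11, 24.4, 1.65 and 1.29 in null. Smad6, an inhibitory SMAD of the BMP branch named after its values were seen, rose by 2.00 in WT and 1.57 in null at 1 h, a difference of 0.42 in the other direction. Grem1, a secreted BMP antagonist, was far apart at 0 h, with 4.18 FPKM in WT and 72.6 in null, and its response differed by -0.31, -0.70 and -0.54.

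Agreement over the 3 times was limited to a handful of genes. The difference had a single sign at 1, 4 and 16 h in 4476 genes (46.0%), and in 13 genes (0.134%) it was 1 or more in that direction at every time. WT was the more positive line for 7 (0.0719%: Rad54l, Snhg9, Tsr3, Rnf126, Mir692-1, Snora31 and Snora64) and null for 6 (0.0616%, among them Maf, Cyp26b1, Trim39, Arhgef1 and Snora3). All 3 differences share the untreated libraries, so a deviation of either enters each of them.

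Rad54l, a DNA recombination gene, measured 2.32, 4.26, 4.43 and 7.10 FPKM in WT and 5.35, 2.86, 2.89 and 2.40 in null. It stood above its 0 h level in WT and below it in null at each time, with differences of 1.38, 1.42 and 2.19. Null of set B gave 5.11 and 3.04 FPKM at 0 and 1 h, close to null of set A. The 1 h response of Rad54l was 0.66 in WT, -0.72 and -0.60 in null of sets A and B, -0.52 in rvWT and -0.49 in sim. Tsr3, a ribosome maturation gene, measured 9.55, 9.13, 14.1 and 13.4 FPKM in WT and 14.9, 4.31, 8.11 and 3.06 in null, with differences of 1.53, 1.32 and 2.42. Rnf126 measured 12.7, 25.5, 31.9 and 29.4 FPKM in WT and 20.2, 14.6, 18 and 20.8 in null, so that its untreated WT library was the lowest of the 8. Its difference was 1.39, 1.42 and 1.11.

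Arhgef1, which encodes an activator of the GTPase RhoA, had differences of -1.94, -1.94 and -4.55, the last being the lowest of all 9733 genes. It measured 17.7, 14.7, 13.1 and 1.63 FPKM in WT and 3.98, 15.1, 13.4 and 15.5 in null. Its untreated null library and its 16 h WT library were far below the other 6, and null of set B gave 10.6 FPKM at 0 h. Its entry is named as transcript variant 4 of the gene, so that its values can be those of a single isoform. Of the 9733 entries, 2122 are named for a transcript variant, among them Rad54l, Tsr3, Rnf126, Cyp26b1 and Trim39. The entries of Maf and Snhg9 are not.

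Maf, a transcription factor gene, stood below its 0 h level in WT at each time, with 13.1, 7.37, 6.75 and 6.5 FPKM, and measured 1.77, 2.53, 2.11 and 2.62 in null. Its difference was -1.10, -1.03 and -1.29. Cyp26b1, a retinoic acid hydroxylase gene, measured 5.54, 3.18, 2.34 and 3.25 FPKM in WT and 1.46, 2.31, 5.29 and 3.10 in null, with differences of -1.07, -2.32 and -1.36. Trim39 measured 7.57, 4.16, 2.54 and 5.83 FPKM in WT and 2.92, 5.58, 6.36 and 5.85 in null. In null of set B it was lower at 1 h (0.801 FPKM) than at 0 h (5.32), against its direction in null of set A. Snhg9 likewise measured 9.47 and 4.29 FPKM at 0 and 1 h in null of set A and 10.9 and 14.1 in null of set B.

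Just under the threshold at 1 time or more, genes with a steadier course held a single sign at all 3. Zfp703, a transcriptional repressor gene, measured 8.46, 30.8, 26.4 and 20.6 FPKM in WT and 9.47, 18, 10.3 and 11.7 in null, with differences of 0.89, 1.42 and 0.91. Gng12, a G protein subunit gene, differed by 0.87, 1.16 and 1.07, from 8.60 FPKM at 0 h in WT and 33.9 in null. Adamts1, a matrix protease gene, was lower after TGFβ in both lines, to 5.07 from 17.1 FPKM at 1 h in WT and to 10.5 from 61.3 in null, with differences of 0.86, 0.87 and 1.22. Nr4a1, an immediate early nuclear receptor gene, measured 8.45, 14.2, 9.25 and 5.42 FPKM in WT and 5.19, 19.0, 10.6 and 6.94 in null. Its differences were -1.0, -0.78 and -0.92.

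**Figure D3:**
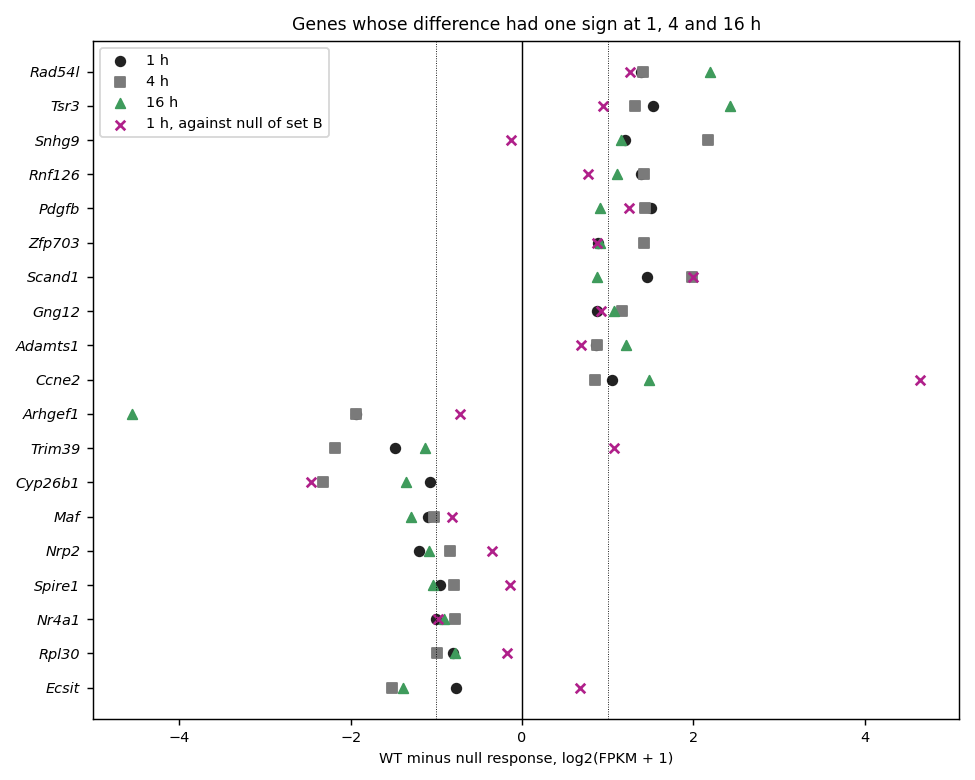
WT minus null response difference in log2(FPKM + 1) at 1, 4 and 16 h for the 10 genes with WT and 9 of those with null the more positive line that had the largest smallest difference, with crosses for 1 h against null of set B. The dotted lines mark 1 and -1, and the crosses of Trim39, Ecsit and Snhg9 lie on the other side of 0.

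The 1 h difference could be set beside a second null series. Over the 9517 genes at 1 FPKM or more in the 14 libraries of 0 h, 1 h and the later set A times, WT and null of set A differed by 1 or more in 56 genes (0.588%), and WT and null of set B in 61 (0.641%). The 2 null series differed from each other in 44 genes (0.462%), and rvWT and null of set B in 55 (0.578%). WT differed from rvWT in 75 genes (0.788%) and from sim in 72 (0.757%). Within set B, sim and null differed in 61 genes (0.641%), and rvWT and sim in 65 (0.683%). The counts of 1 h differences between WT and null were thus somewhat above the count between null and null and below that between rvWT and sim. These counts were not tested against each other. The count between null and null was taken across the sets, as were the 61 genes of WT and null of set B, whereas the 56 were taken within set A. Pearson's r of the 1 h response over these genes was 0.65 between the null series, 0.54 between WT and null of set A over the 9733 genes, and 0.56 between WT and null of set B. Between the WT minus null difference of set A and the rvWT minus null difference of set B, which share no library, r was 0.08 (rho 0.12). With the sim mutant in place of rvWT, r was 0.12 (rho 0.17).

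Single genes did stand apart. Leaving out small RNAs, the WT response at 1 h lay 1 or more from both null series on the same side in 24 of 9692 genes (0.248%), 15 higher and 9 lower. The same count was 11 (0.113%) for null of set A against WT and null of set B, and 18 (0.186%) for null of set B against the other 2. These counts, like the comparison between the null series, were chosen after the data had been seen.

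Id1, Id2 and Id3 were among the 9 lower genes. The 1 h response of Id1 was -0.07 in WT, 1.23 and 1.29 in null of sets A and B, 1.92 in rvWT and 2.11 in sim. For Id2 these responses were -0.35 in WT, 1.11 and 1.41 in null, 1.74 in rvWT and 1.75 in sim. Id3 gave 0.04 in WT, 1.39 and 1.41 in null, 1.62 in rvWT and 1.84 in sim. The line with Arkadia put back by retrovirus lay beyond null, on the side away from WT, for all 3 genes. Its Rnf111 level was not that of WT, with 110 and 103 FPKM at 0 and 1 h against 14.6 and 15.1. The part of this level in the responses was not tested.

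Of the 15 higher genes, Pdgfb responded by 3.09 in WT, 1.59 and 1.84 in null, 2.18 in rvWT and 1.92 in sim. Runx1 responded by 2.38 in WT, 0.77 and 0.91 in null and 1.64 in both rvWT and sim. Fam210b, a mitochondrial protein gene, measured 9.32, 35.1, 47.1 and 24.9 FPKM in WT and 3.94, 4.26, 6.19 and 7.28 in null. Its 1 h response was 1.81 in WT and 0.09 to 0.36 in the other 4 series. Gadd45b, a stress gene named after its values were seen, responded by 1.92 in WT, 0.70 and 0.64 in null, 1.30 in rvWT and 1.2 in sim. In 16 genes (9 higher and 7 lower) WT lay 1 or more from all 4 other series, rvWT included.

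**Figure D4:**
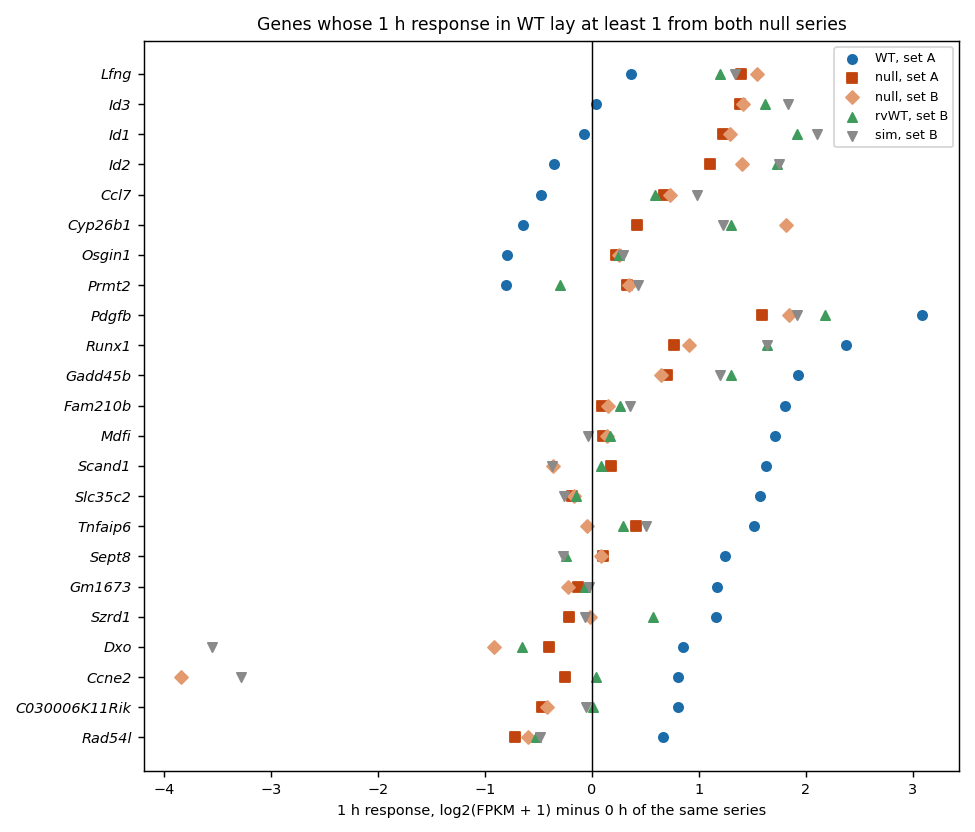
The 1 h TGFβ response in log2(FPKM + 1), 1 point per series, for 23 of the 24 genes whose response in WT lay 1 or more from both null series. For Id1, Id2 and Id3 the rvWT and sim points lie with the null points or beyond them, and for Runx1 and Gadd45b between WT and null.

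At 16 h several of the largest differences belonged to genes that moved more in null than in WT. Mt2, a metallothionein gene, measured 9.44, 8.67, 10.0 and 12.9 FPKM in WT and 84.4, 70.6, 57.5 and 18.4 in null. The lines were far apart at 0 h and close at 16 h, and the response difference was 0.14, 0.62 and 2.55. Rasl11a, a Ras-like gene, followed the same course, with 4.44, 2.27, 1.94 and 2.73 FPKM in WT and 42.7, 31.9, 10.5 and 4.88 in null, and a difference of 2.35 at 16 h. Mcam, a cell adhesion gene, went the other way, with 20.7, 32.9, 29.7 and 33.8 FPKM in WT and 3.94, 11.6, 27.0 and 50.1 in null, and differences of -0.71, -2.0 and -2.69. Wisp2, a relative of Ctgf, measured 6.16, 8.04, 5.24 and 7.95 FPKM in WT and 10.2, 18.1, 38.8 and 48.9 in null, with -0.43, -2.03 and -1.83. Bicc1, an RNA-binding protein gene, moved more in WT, as Arhgef1 and Rad54l did at this time, with 64.4, 66.1, 33.1 and 18.5 FPKM against 29.0, 28.4, 35.2 and 33.9 in null and a difference of -1.97 at 16 h. Of the 103 genes with null the more positive line at 16 h, 72 were below their 0 h level in WT and above it in null, and of the 92 with WT the more positive, 65 were above it in WT and below it in null.

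The change from 1 h to 16 h, which does not use the untreated libraries, differed between the lines by 1 or more in 198 genes (2.03%), 97 with WT the more positive (0.997%) and 101 with null (1.04%). With median-ratio scaling of the libraries this split was 76 and 121, and with quantile normalization 76 and 123.

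Among extracellular matrix genes, the 39 tested had a median difference of 0.08 at 1 h, 0.12 at 4 h and -0.04 at 16 h. The difference lay above 0 in 33, 26 and 19 of them, against 46.4%, 52.4% and 57.1% of all genes. Their median 16 h response was 0.57 in WT and 0.64 in null. At 16 h 7 of them rose by 1 or more in WT and 11 in null, against 0.935% and 1.49% of all genes. The difference passed the threshold for 1 upward (Adamts1) and 3 downward (P4ha3, Fbn1 and Col6a3), against 0.945% and 1.06% of all genes. Fbn1, which encodes fibrillin 1, measured 35.8, 35.9, 47.2 and 56.5 FPKM in WT and 4.82, 4.52, 7.29 and 20.6 in null, a difference of -1.25 at 16 h. Col5a3, a fibrillar collagen gene, measured 5.65, 6.45, 12.1 and 23.8 FPKM in WT and 5.44, 4.89, 4.32 and 11.5 in null, with differences of 0.29, 1.25 and 0.94. Col1a1, the main collagen I chain gene, stood 0.92 above its 0 h level in WT and 0.91 in null at 16 h, from 437 and 1030.04 FPKM.

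Contractile and cytoskeletal genes (27 tested) had medians of 0.07, -0.22 and -0.08. Actg2, a smooth muscle actin gene, reached 2.09 FPKM from 1.36 at 16 h in WT and 15.0 from 3.47 in null, a difference of -1.46. Myl9, a myosin light chain gene, measured 17.7, 18.7, 15.1 and 11.7 FPKM in WT and 195, 186, 277 and 338 in null, with -1.35 at 16 h. Among matrix proteases and inhibitors (14 tested, medians -0.14, -0.17 and -0.16), Timp1 measured 99.8, 124, 305 and 192 FPKM in WT and 91.3, 86.5, 82.8 and 201 in null. Its difference was 1.74 at 4 h and -0.19 at 16 h. The 16 h response of Timp3 was 1.46 in null and 0.14 in WT, a difference of -1.33.

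Cell cycle genes parted late. The 33 tested genes had a median difference of 0.01 at 1 h, 0.22 at 4 h and 0.48 at 16 h, when 30 of them lay above 0, against 57.1% of all genes. The median 16 h response of the list was -0.05 in WT and -0.54 in null. Only 2 members passed the threshold upward at 16 h (Ccne2 and Ccnb2) and 1 downward (Ccnd2), against 0.945% and 1.06% of all genes. Aurka, a mitotic kinase gene, measured 56.3, 56.5, 54.9 and 59.9 FPKM in WT and 57.1, 51.7, 44.6 and 33.4 in null, with differences of 0.15, 0.32 and 0.85. Plk1 measured 41.6, 43.4, 40.2 and 44.7 FPKM in WT and 57.9, 52.0, 45.7 and 34.9 in null. Ccnd2, a G1 cyclin gene, went against the list with 169.6, 132, 70.7 and 70.6 FPKM in WT and 46.0, 41.8, 33.1 and 48.1 in null, a difference of -1.32 at 16 h.

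Cholesterol synthesis genes parted in the opposite direction. The 21 tested genes had medians of 0.06, -0.40 and -0.58, and lay below 0 in 8, 21 and 20 of 21 cases at 1, 4 and 16 h, against 53.6%, 47.6% and 42.9% of all genes. The median 16 h response was -0.06 in WT and 0.54 in null. Cyp51, a sterol demethylase gene, measured 12.7, 13.6, 11.6 and 12.7 FPKM in WT and 28.2, 27.6, 40.2 and 65.4 in null, with differences of 0.12, -0.62 and -1.20. Sc4mol, a methyl sterol oxidase gene, measured 37.9, 31.7, 26.5 and 34.4 FPKM in WT and 57.4, 51.1, 66.2 and 103 in null, with -0.97 at 16 h. Both were highest in null at 16 h. Most members of both lists stayed under the threshold of 1, and no list was tested.

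**Figure D5:**
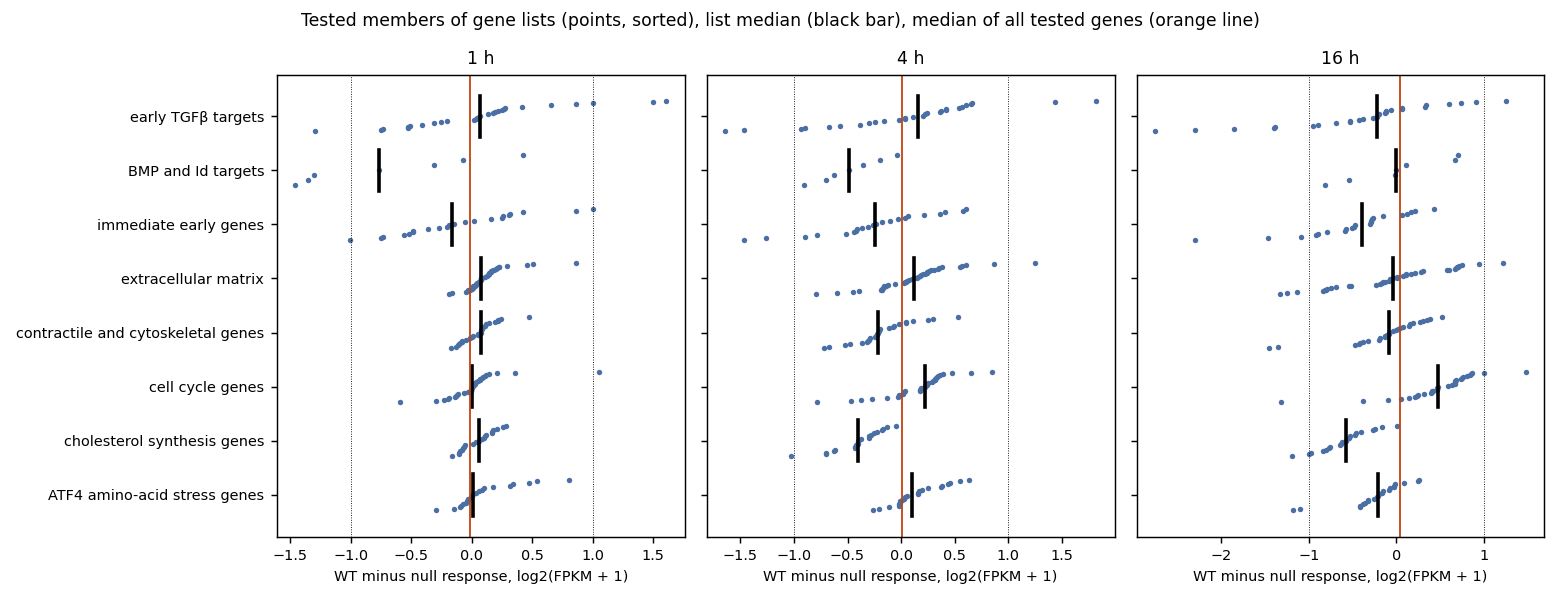
WT minus null response difference of every tested member of 8 gene lists at 1, 4 and 16 h (points), with the list median (black bar) and the median of all 9733 genes (orange line). BMP and Id targets lie low at 1 h, and cell cycle genes high and cholesterol synthesis genes low at 16 h.

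Receptors, SMADs and ligands differed little as a group, with medians of -0.03, -0.12 and -0.07 over 24 tested genes. Only 2 passed the threshold, both downward at 16 h, against 1.06% of all genes. Those were Tgfb3, a ligand gene that measured 50.4, 55.7, 37.7 and 32.4 FPKM in WT and 16.2, 20.6, 24.5 and 37.0 in null (-1.77 at 16 h), and Inhba, the activin A subunit gene (-1.39). Cytokines, chemokines and growth factors (20 tested) had medians of -0.13, -0.10 and -0.12. Ccl17, a chemokine gene, was induced further in WT, with 1.68, 4.66, 11.3 and 40.2 FPKM against 1.53, 2.14, 4.52 and 14.7 in null and differences of 0.77, 1.08 and 1.31. Hbegf, an EGF receptor ligand gene, measured 19.7, 58.7, 48.3 and 35.5 FPKM in WT and 10.7, 39.5, 33.3 and 73.9 in null, with -0.26, -0.30 and -1.86.

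Immediate early genes (22 tested) had medians of -0.17, -0.25 and -0.39 and lay below 0 in 17 of 22 cases at 16 h, against 42.9% of all genes, and ERK feedback genes (16 tested) of -0.02, -0.13 and -0.28. Dusp6, a phosphatase gene that limits ERK signalling, measured 102, 85.2, 97.5 and 58.6 FPKM in WT and 9.50, 13.2, 18.4 and 20.2 in null, with -0.69, -0.94 and -1.80. Fos, an AP-1 subunit gene, measured 3.95, 7.21, 2.95 and 1.73 FPKM in WT and 5.40, 10.8, 11.2 and 6.51 in null, with -0.15, -1.26 and -1.09.

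ATF4 amino-acid stress genes (22 tested) had medians of 0.01, 0.11 and -0.21 and lay below 0 in 19 of 22 cases at 16 h, against 42.9% of all genes. Trib3, a pseudokinase gene of that pathway, differed by -1.19 at 16 h. Hypoxia and glycolysis genes (18 tested) had medians of 0.03, 0.18 and 0.23, with Egln3, an oxygen sensor gene, at 1.53 at 16 h. The p53 targets (17 tested) had medians of 0.05, -0.01 and 0.05, interferon response genes (12 tested) of -0.04, -0.04 and 0.02, and SUMO pathway and Polycomb subunits (37 tested) of 0.00, -0.04 and 0.12, with no member of the last list past the threshold at any time. Fibroblast markers (12 tested) had medians of 0.08, -0.16 and 0.11, also with no member past it. Arkadia's own list of substrates and partners (3 tested, Ski, Smad7 and Axin1) had medians of 0.27, 0.21 and -0.12. The tested markers of other cell types were 3 epithelial, 1 endothelial, 2 haematopoietic, 4 neural, and 3 muscle and adipocyte genes, and of these only Flt1 passed the threshold, at -1.07 at 16 h.

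The filter on low values set the edge of the gene set. The members with the lowest minimum were C430049B03Rik at 1.00117 FPKM, 1700092M07Rik and Zfp790, and the genes just outside were Map3k7cl at 0.99997 FPKM, Fgd6 and Calr3. Of the 2367 genes outside, 413 passed a difference of 1 at some time. Several of them were listed at 0 in 1 or 2 libraries while well above it elsewhere, such as Drosha, the nuclear microRNA processing enzyme, at 0 in WT at 0 h and null at 16 h and at 26 to 36.6 FPKM in the other 6 libraries.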

How the data were processed

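Gene expression was measured by sequencing of poly(A)-enriched RNA, 1 library per line and time, and 8 of the 16 libraries (WT and null of set A at 0, 1, 4 and 16 h) carry the comparison. The authors deposited 1 table of FPKM values for 12100 genes. The build was mm9, and Cufflinks 2.2.1, STAR 2.3.0e, CASAVA 1.8.2 and SAMtools are named, per the submitters' processing notes. The role of each tool, the gene annotation and the handling of multiply mapping reads are not given in the sources at hand. Read depth is unknown, so no counting interval is given, and some values are those of 1 isoform of a gene.

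FPKM values were taken as log2(FPKM + 1), with a pseudocount of 1, for the 9733 genes at 1 FPKM or more in all 8 libraries. A difference of responses of 1 or more was called in description only. For weakly expressed genes this scale understates a change. The difference over the 3 times was tested with limma 3.58.1 in R 4.3.3 (trend, time as a block, line, line by treatment, 2 residual degrees of freedom), with Benjamini-Hochberg adjustment over all 9733 genes and an adjusted p below 0.05, after the script had been tested on simulated data. Counts and list medians were made with Python 3.11.15 and pandas 2.3.3.

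Named genes were Rnf111, Ski and Smad7; the 10 genes in each direction with the largest smallest difference over the 3 times and a single sign; the 5 largest differences each way at each time; and up to 4 tested members of each of 23 gene lists with the largest mean difference. Genes chosen by agreement or by a single time had to reach 5 FPKM in a library, and list members did not. Small RNAs were left out of these choices, and were counted or named as examples. Some genes the rule names are not reported here. Genes named outside this rule, the comparison between the null series, the counts of genes standing apart at 1 h, and the choice of the Id2 and Id3 windows and of the GGCGCC motif came after the values had been seen. The rule for sequences had been the leading genes of the agreement over times, whose motif counts are given. Members and lists were chosen with earlier results of these data known. Promoter windows came from RefSeq on GRCm38.p6, which differs from the build of the files, and 7342 of the 9733 genes had one. The alternatives were pseudocounts of 0.1 and 5, other filters, median-ratio and quantile scaling, small RNAs left out, the null libraries of set B, each treated time left out, and other limma settings.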

Additional observations from a re-analysis of the deposited data

Results flagged for a closer look

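Of the 20 leading genes by agreement over 1, 4 and 16 h, 9 had every WT time on one side of the untreated level and every null time on the other. This was so in 504 of all 9733 genes (5.18%), and the 20 were chosen for a single sign of the difference, which such a course gives. WT stood above its 0 h level and null below it for Rad54l (mean difference over the 3 times 1.66), Gng12 (1.04) and Ccne2 (1.13). WT stood below and null above for Arhgef1 (-2.81), Trim39 (-1.60), Cyp26b1 (-1.58), Maf (-1.14), Nrp2 (-1.05) and Rpl30 (-0.86). All of these entries but that of Maf are named for a transcript variant, against 2122 of the 9733. Their values can be those of a single isoform. The difference between the lines was not shown by a test in any of them, since the 3 times share 1 untreated library per line and none passed in limma. The null 1 h response of set B went in the direction of set A for Rad54l (-0.60), Gng12 (-0.31), Ccne2 (-3.84), Arhgef1 (0.48), Cyp26b1 (1.82) and Maf (0.07), and in the other direction for Trim39 (-1.81), Nrp2 (-0.49) and Rpl30 (-0.16). Ccne2 was listed at 0.0203 FPKM in null of set B at 1 h, and Cyp26b1 at 0.000417 at 0 h, against 8.35 and 1.46 FPKM in set A.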

How the results depend on the processing

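Counts of genes past 1 at 1, 4 and 16 h (71, 102 and 195) and in a single direction at all 3 times (13) moved most with the filter and the null baseline. With a mean of 1 FPKM as filter they were 198, 269, 461 and 53, with no filter 213, 288, 504 and 54, and with 5 FPKM in all libraries 31, 42, 91 and 6, where fewer genes are tested. With a pseudocount of 5 they were 32, 45, 83 and 5, and with 0.1 the 16 h count was 296. With the set B null 0 h library as baseline, itself not filtered, they were 333, 357, 579 and 155, the cause of which was not tested. Leaving out 1 treated time in turn gave 22 to 43 genes in a single direction over the remaining times. The count for the change from 1 h to 16 h (198) was 310.0 and 85 with pseudocounts of 0.1 and 5, and 458, 496 and 91 with the mean, no and 5 FPKM filters. For rvWT minus null in set B at 1 h it was 90.0 of the 9733 genes, which were filtered on set A alone. The 55 given earlier were of the 9517 genes also at 1 FPKM or more in the set B libraries of 0 and 1 h. The count of 90.0 was 43 with a pseudocount of 5, and 198, 219 and 47 with those filters. limma called 9 genes with a mean filter or none, 87 with the set B baseline, and 0 under each of the other settings run. The null 1 h response of set B turned the 1 h difference of Snhg9 (-0.14), Trim39 (1.08), Mbnl1 (-0.028) and Spsb3 (-0.44), and 12 of the 23 named differences past 1 at 1 h stayed past it. The set B baseline turned Ecsit at 4 h (0.16) and 16 h (0.29) and Isg15 at 16 h (0.40). Scaling turned none of the 96 named differences past 1 and left 94 (median-ratio) and 92 (quantile) past it.

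No paired analysis was possible because the labels carry no replicate numbers and each line has 1 library per time within a set. The pairing by time is the block of the limma fit. Unknown read depth and single libraries limit every value.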
